A study of Homo sapiens with 2 samples.

Results

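The subject is the miR-424, miR-503, miR-542 and miR-450 cluster, a group of neighbouring microRNA (miRNA) hairpins on the X chromosome. Of its products, 8 were taken by name from the deposited table of 1213 small RNA entries, and they were chosen because members stood on the higher side in UM-SCC6-M. The levels and ratios below are therefore a description and carry no test. The selected culture was UM-SCC6-M, invasion front cells of UM-SCC6, a human line from an oral squamous cell carcinoma, recovered after 3 rounds of passage through a matrix channel in a microfluidic chip and regrown in dishes. It was set against the parental line UM-SCC6. Each culture gave 1 library, so no difference has a replicate check, and the selection cannot be told apart from any other difference between the cultures.

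MiRNAs guide Argonaute proteins to messenger RNAs by pairing through the seed, bases 2 to 8 from the 5′ end, and lower the output of those messages. A hairpin precursor is cut into a 5p and a 3p arm, and usually 1 of them is loaded and kept while the other is degraded. miR-424-5p and miR-503-5p belong to the extended miR-15 and miR-16 family, which represses cell cycle genes such as those for cyclin D1, cyclin E1 and CDC25A. miR-424 is the human counterpart of mouse miR-322, and in endothelial cells it is known as a miRNA induced by low oxygen.

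The mature sequences show how the products relate. They are RefSeq entries on GRCh38.p14, which held 7 of the 8 members, and capitals mark the seed. The first group shares or nearly shares a seed with miR-16-5p, a member of the same family encoded on chromosomes 3 and 13.
miR-424-5p: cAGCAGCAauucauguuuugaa
miR-503-5p: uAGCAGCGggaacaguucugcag
miR-16-5p: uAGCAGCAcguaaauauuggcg
The second group holds the miR-450 products.
miR-450a-5p: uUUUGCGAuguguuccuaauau
miR-450b-5p: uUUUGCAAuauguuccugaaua
miR-450a-2-3p: aUUGGGGAcauuuugcauucau
miR-450a-1-3p: aUUGGGAAcauuuugcauguau
The last group holds arms with seeds of their own.
miR-424-3p: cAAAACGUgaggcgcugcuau
miR-542-5p: uCGGGGAUcaucaugucacgaga
Counted from 1 at the 5′ end, the seeds of miR-424-5p and miR-503-5p differed by A8G, with miR-424-5p given first. The seeds of miR-450a-5p and miR-450b-5p differed by G7A, with miR-450a-5p first, and these products differed at 6 of 22 positions in all. miR-450a-1-3p and miR-450a-2-3p differed at 3 of 22 positions (A7G, G19U and U20C). Among the RefSeq mature entries used here, 6 others had the seed of miR-424-5p, and none had that of miR-503-5p, miR-424-3p, miR-450a-5p or miR-450b-5p.

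The 6 hairpins lie on the minus strand of the X chromosome within 6527 bases of GRCh38. In the direction of the strand they run MIR424 (chrX:134546614-134546711), MIR503 (chrX:134546328-134546398), MIR542 (chrX:134541341-134541437), MIR450A2 (chrX:134540508-134540607), MIR450A1 (chrX:134540341-134540431) and MIR450B (chrX:134540185-134540262). MIR503 lies in an intron of 3 of the 5 GENCODE transcripts of the long noncoding RNA gene MIR503HG, and MIR424 overlaps the first 19 bases of that gene. MIR542 and the miR-450 hairpins lie beyond its 3′ end. miR-450a-5p is cut from both MIR450A2 and MIR450A1 with the same sequence, so its reads do not tell these hairpins apart.

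The RefSeq promoter window of MIR503HG (chrX:134546581-134546880, minus strand, 250 bases before and 50 after the gene start) is shown because it contains the whole MIR424 hairpin, from base 170 of the window. Capitals mark miR-424-5p and then miR-424-3p as DNA. Both arms lie before the gene start, so a transcript from that start would not hold them. Whether this window drives miR-424 was not tested.
MIR503HG promoter window: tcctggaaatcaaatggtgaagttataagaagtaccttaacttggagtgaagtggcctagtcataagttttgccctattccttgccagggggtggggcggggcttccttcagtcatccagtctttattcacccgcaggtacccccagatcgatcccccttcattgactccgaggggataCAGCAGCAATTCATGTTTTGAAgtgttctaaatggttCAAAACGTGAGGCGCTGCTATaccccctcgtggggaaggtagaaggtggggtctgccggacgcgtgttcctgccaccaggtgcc
Searched on both strands, the window held no TATAAA, which 11.5% of 35116 RefSeq promoter windows held, and no CACGTG, which 7.26% held. The shorter ACGTG overlaps CACGTG and is a form of the core of the hypoxia response element. It occurred once, at base 221 and inside miR-424-3p. ACGTG was present in 21.4% of all windows. The other form of the core, GCGTG, was not counted, and the printed window holds it beyond miR-424-3p.

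The mature arms within the MIR503 and MIR450B hairpins are shown in capitals, to place the products described below within their precursors.
MIR503: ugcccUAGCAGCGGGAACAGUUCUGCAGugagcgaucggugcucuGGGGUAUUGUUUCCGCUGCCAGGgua
MIR450B: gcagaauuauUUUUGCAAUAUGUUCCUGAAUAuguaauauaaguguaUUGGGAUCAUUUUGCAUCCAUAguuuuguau

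Summed over entries, the reads recovered from the scaled values came to 7699490 in UM-SCC6-M and 8182958 in the parental library. Entries with nearly the same reads, such as miR-374b-5p and miR-374c-3p, both count in these sums. Entries listed at 0 in both libraries do not. Values are normalized reads, scaled between the libraries by the authors. Each read spans a whole mature miRNA, so no division by length was made. Intervals in brackets are exact 95% intervals that cover counting error only. They treat each read as independent. Reads copied by PCR are not independent molecules, so the intervals can be too narrow. The epithelial markers fixed for these cells, such as miR-200b-3p, summed to 19623 normalized reads in UM-SCC6-M and 16344 in the parental library. Of the 7 epithelial names, 5 had an entry and none of these was at 0 in both. miR-200b-3p held most of the sum, at 17481 in UM-SCC6-M and 12823 in UM-SCC6. miR-200a-3p stood the other way, at 1344 in UM-SCC6-M and 2674 in UM-SCC6, miR-429 had a log2 ratio of -0.09, and miR-203a-3p and miR-200c-3p had under 3 normalized reads in each library.

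All 6 cluster products that were listed in both libraries stood higher in UM-SCC6-M. Together, these 6 and miR-450a-2-3p, which was taken to have no reads in UM-SCC6, gave 727 normalized reads in UM-SCC6-M and 248 in UM-SCC6. Their share of the reads summed over entries was 0.0791% in UM-SCC6-M (0.0771 to 0.0811) and 0.0228% in UM-SCC6 (0.0218 to 0.0239). The summed level was 2.93-fold higher in UM-SCC6-M (2.78 to 3.09). In RNA from whole cultures, more cells with the cluster and more of it per cell cannot be told apart.

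At 50 or more normalized reads in the higher library and at least 2-fold apart, 5 of the 8 members were called higher and none lower. Over all entries, 7.26% of the 179 miRNAs at that level, which include these 5, were called higher and 12.8% lower. The members were chosen on this same contrast. The counting interval lay wholly above 2-fold for all 5, as it did for 6.15% of the 179. Of the 3 others, miR-424-5p stayed below 50 normalized reads, miR-450a-2-3p was near the listing limit and miR-542-5p was listed at 0 in both libraries. The median log2 ratio of the 6 listed products was 1.38, with a range of 1.01 to 2.03, against 0.04 over the 179 miRNAs.

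The miR-424 hairpin gave the highest and the lowest of these ratios. miR-424-3p, the arm opposite the family member, had 241.9 normalized reads in UM-SCC6-M and 59.3 in UM-SCC6. These rest on 2026 and 446 reads. It was 4.08-fold higher (3.68 to 4.53), the second highest ratio of the 179. miR-424-5p, the arm with the miR-15 and miR-16 seed, had 34.0 normalized reads in UM-SCC6-M and 16.9 in UM-SCC6, on 285 and 127 reads. It was 2.01-fold higher (1.63 to 2.51), an interval that includes values under 2-fold.

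miR-503-5p, the other cell cycle repressing product of the cluster, had 68.5 normalized reads in UM-SCC6-M and 28.97 in UM-SCC6, on 574 and 218 reads. It was 2.36-fold higher (2.02 to 2.78). Its passenger arm miR-503-3p was listed at 0 in both libraries. The log2 fold change of 1.4307 in the authors' deposited table corresponds to 3 reads against 1, or 6 against 2, in UM-SCC6-M and UM-SCC6. That is too few to show a difference.

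miR-542-3p, which is reported to repress the survivin gene BIRC5, had 119.3 normalized reads in UM-SCC6-M and 48.5 in UM-SCC6. These came from 999 and 365 reads, and the product was 2.46-fold higher (2.18 to 2.78). miR-542-5p, the opposite arm, was listed at 0 in both libraries with no deposited fold change. Values under 1 normalized read are listed as 0, so it had at most 8 reads in UM-SCC6-M and 7 in UM-SCC6. The miR-542 reads at this depth were therefore almost all from the 3p arm.

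The miR-450 products lie at the 3′ end of the cluster. miR-450b-5p had 190.2 normalized reads in UM-SCC6-M and 68.8 in UM-SCC6, on 1593 and 518 reads, and was 2.76-fold higher (2.50 to 3.06). miR-450a-5p had 71.6 normalized reads in UM-SCC6-M and 25.5 in UM-SCC6, on 600 and 192 reads, and was 2.80-fold higher (2.38 to 3.32). The ratios of these sister products, which differ by 1 base in the seed, lay within counting error of each other.

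Of the 3p arms of miR-450a, miR-450a-2-3p had 11 reads in UM-SCC6-M (1.31 normalized reads) and was taken to have none in UM-SCC6. Against a floor of 3 reads for the parental library it was 3.29-fold higher. The exact 95% interval of its ratio, which also covers the counting error of the 11 reads, began at 2.26-fold. For miR-450a-1-3p the deposited log2 fold change of -2.4762 in the authors' deposited table corresponds to 1 read in UM-SCC6-M and 5 in UM-SCC6. These arms come from separate hairpins and both had under 12 reads in either library, so no ratio between the hairpins can be read from them. miR-450b-3p had no entry under this name.

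**Figure D1:**
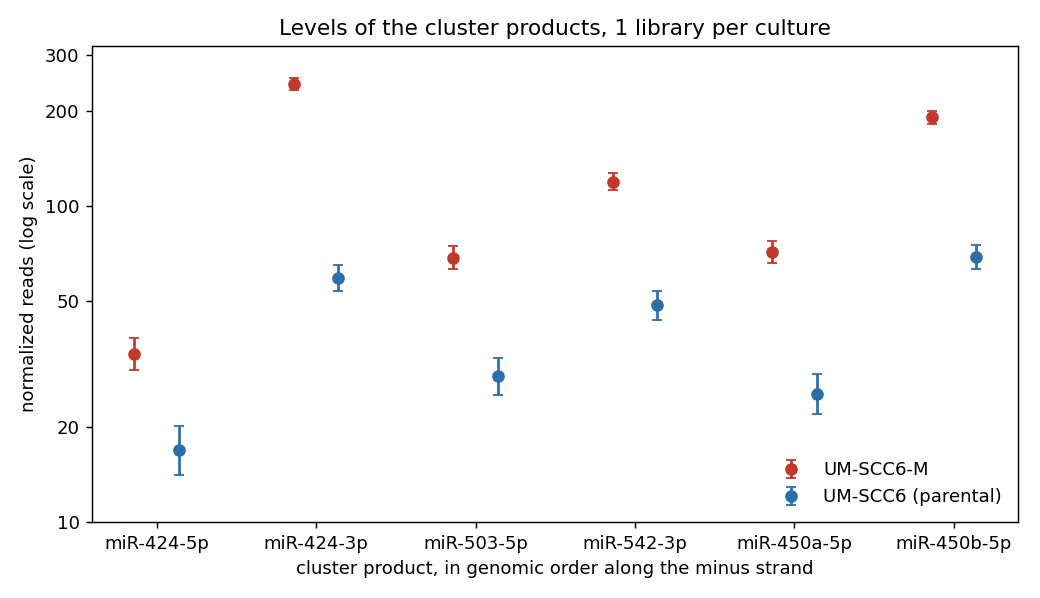
Normalized reads (log scale) of the 6 cluster products listed in both libraries, with UM-SCC6-M in red and parental UM-SCC6 in blue; points are single libraries and bars exact 95% Poisson intervals of counting error. The UM-SCC6-M point is above the parental point for each product and the intervals of the pair do not overlap, from 34.0 against 16.9 for miR-424-5p to 241.9 against 59.3 for miR-424-3p.

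The order of the products by level differed between the libraries. In UM-SCC6-M miR-424-3p was first (interval 231 to 253 normalized reads), followed by miR-450b-5p (181 to 200) and miR-542-3p (112 to 127), and these neighbours lay apart beyond their counting intervals. miR-450a-5p (66.0 to 77.6) and miR-503-5p (63.0 to 74.4) overlapped, and miR-424-5p (30.2 to 38.2) was last. In the parental library miR-450b-5p (63.0 to 75.0) and miR-424-3p (53.9 to 65.03) overlapped at the top. miR-542-3p (43.7 to 53.7) came next, then miR-503-5p (25.3 to 33.1) and miR-450a-5p (22.0 to 29.4), which overlapped. miR-424-5p (14.1 to 20.1) was again last. Of the whole library, miR-424-3p ranked 104 of 506 listed entries in UM-SCC6-M and 160 of 511 in UM-SCC6, and miR-450b-5p ranked 118 and 154.

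The make-up of the cluster does not depend on the scaling between libraries. miR-424-3p held 33.3% of the cluster's reads in UM-SCC6-M (32.1 to 34.5) and 23.9% in UM-SCC6 (22.0 to 25.9), the one share of the 6 listed products that was higher in UM-SCC6-M. The share of miR-450b-5p was 26.2% in UM-SCC6-M (25.1 to 27.3) and 27.8% in UM-SCC6 (25.7 to 29.9), and that of miR-450a-5p was 9.86% and 10.3% in the same order. Both pairs of intervals overlap. miR-542-3p held 16.4% in UM-SCC6-M (15.5 to 17.4) and 19.6% in UM-SCC6 (17.8 to 21.4). miR-503-5p held 9.43% in UM-SCC6-M (8.71 to 10.2) and 11.7% in UM-SCC6 (10.3 to 13.2). miR-424-5p held 4.68% in UM-SCC6-M (4.16 to 5.24) and 6.81% in UM-SCC6 (5.71 to 8.04). Shares are parts of a whole, so the larger share of miR-424-3p by itself lowers the others.

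**Figure D2:**
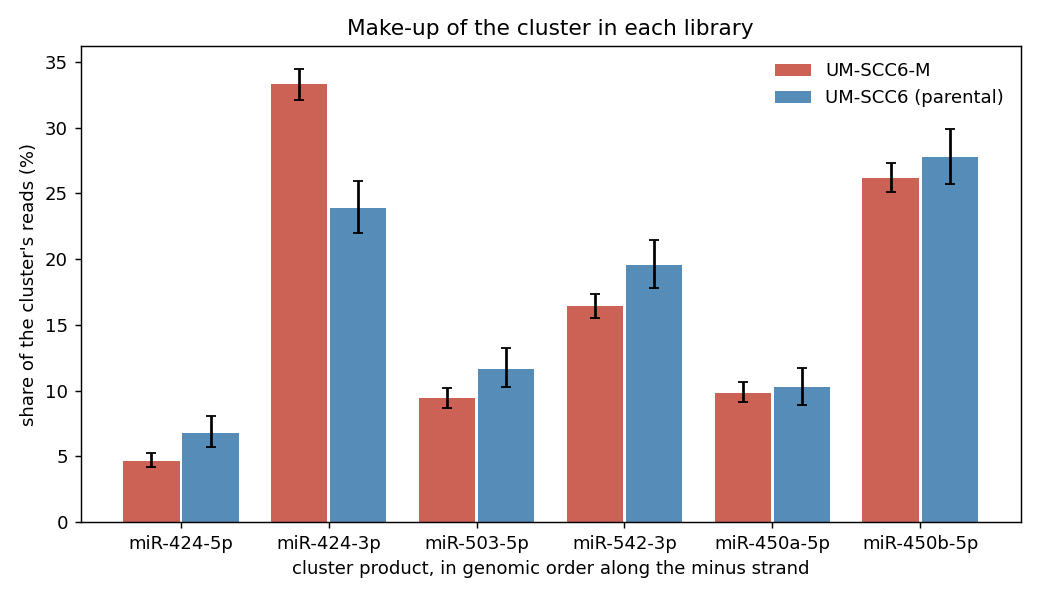
Share of the cluster's reads (%) held by each of 6 products, with UM-SCC6-M in red and parental UM-SCC6 in blue; bars start at 0 and error bars are exact 95% binomial intervals of counting error. miR-424-3p is the one product with a larger share in UM-SCC6-M, at 33.3% against 23.9%.

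Without miR-424-3p the summed level was 485 normalized reads in UM-SCC6-M and 189 in UM-SCC6, which is 2.57-fold higher (2.42 to 2.73). All 15 pairs of the 6 products were compared by the difference of their log2 ratios. The exact 95% interval left out 0 for 7 pairs, among them all 5 with miR-424-3p. The other 2 set miR-450a-5p (0.48, interval 0.08 to 0.87) and miR-450b-5p (0.45, 0.11 to 0.80) above miR-424-5p. These intervals were not adjusted for the number of pairs. miR-503-5p, miR-542-3p, miR-450a-5p and miR-450b-5p could not be told apart from each other, their ratios running from 1.24 to 1.49 on the log2 scale.

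The balance of the miR-424 arms was then compared. The 3p arm had 7.11 times the reads of the 5p arm in UM-SCC6-M and 3.51 times in UM-SCC6. It held 87.7% of the hairpin's reads in UM-SCC6-M and 77.8% in UM-SCC6. The ratio of 3p to 5p was 2.02 times as large in UM-SCC6-M (1.59 to 2.57). Of 70 hairpins with both arms at 10 or more normalized reads in the higher library, 28.6% had a log2 balance at least 1 apart between UM-SCC6-M and UM-SCC6, and for 14.3% the shift was toward the 3p arm. Ranked by the difference toward 3p, miR-424 was in place 10 of 70. More 3p than 5p reads in both libraries were found for 51.4% of these hairpins.

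**Figure D3:**
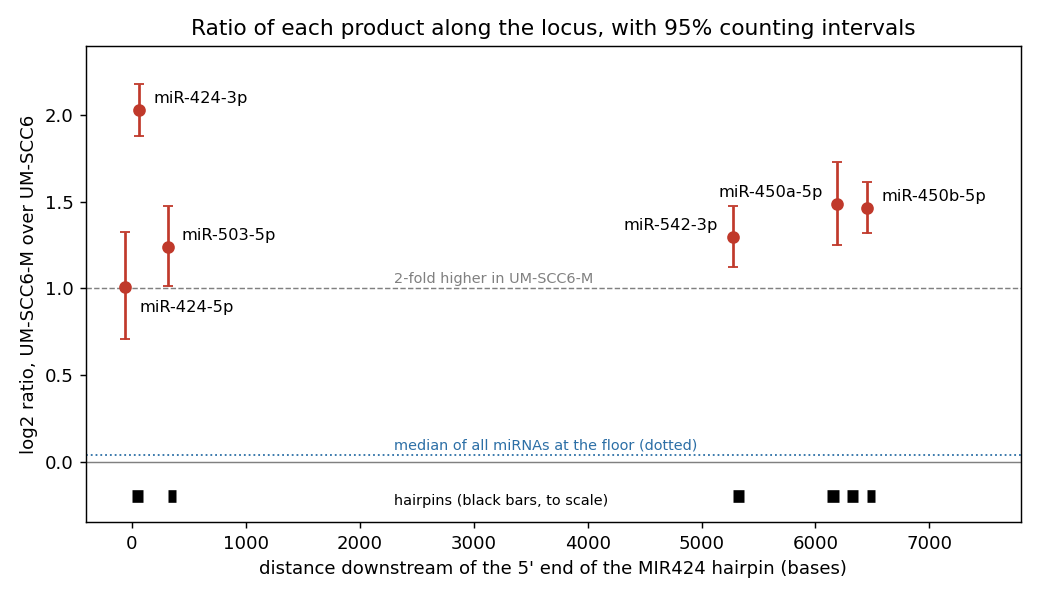
Log2 ratio of UM-SCC6-M over UM-SCC6 for each product against the distance of its hairpin from the 5′ end of MIR424 in bases along the minus strand; error bars are exact 95% counting intervals, the arms of miR-424 are set slightly apart, and miR-450a-5p is drawn between its hairpins. All points lie at or above 1.01, the arms of MIR424 span the whole range from 1.01 to 2.03, and the products of the other hairpins lie between 1.24 and 1.49.

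The miR-15 and miR-16 family gives the other carriers of the miR-424-5p seed. Of the 9 names in that list, including miR-424-5p and miR-503-5p, 6 reached 10 normalized reads, 2 were at least 2-fold higher and none was 2-fold lower. At 10 or more normalized reads, 7.27% of 289 miRNAs were at least 2-fold higher and 15.6% at least 2-fold lower. The 2 were the cluster's own products, which were chosen on this same contrast. The median log2 ratio of the 6, these 2 included, was 0.50. For the 5 family members outside the cluster with reads in both libraries it was 0.36. miR-16-5p had 957 normalized reads in UM-SCC6-M and 745 in UM-SCC6, a log2 ratio of 0.36 (0.31 to 0.41). miR-15b-5p, from the same locus on chromosome 3 as one miR-16 hairpin, had 610 in UM-SCC6-M and 469 in UM-SCC6, a log2 ratio of 0.38 (0.32 to 0.44). These far more abundant members carry most copies of the seed in both libraries. miR-195-5p stood at 0.62 (0.27 to 0.99), while the intervals of miR-15a-5p (-0.23) and of miR-497-5p (-0.30), below the floor, included 0. miR-6838-5p was listed at 0 in both libraries.

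Other miRNAs encoded only on the X chromosome were looked at next. Chromosomes came from the RefSeq mature and hairpin entries together, which placed all 179 miRNAs at 50 or more normalized reads. Outside the cluster, 20 of these lay on the X chromosome alone, of which 2 were at least 2-fold higher and 1 at least 2-fold lower. The higher ones were miR-374b-5p and miR-374c-3p, which come from opposite strands of 1 locus and have nearly the same reads (12905 and 12894 in UM-SCC6-M). The lower one was miR-500a-5p, at 32.4 normalized reads in UM-SCC6-M and 67.9 in UM-SCC6. The 20 stood on both sides of 0, with 11 above and 9 below, and no direction is given for them. Their median log2 ratio was 0.08, against -0.0047 over the 174 miRNAs outside the cluster at that level, and it turned to -0.12 with a floor of 10 normalized reads. The next miRNA cluster on the same strand, from miR-106a to miR-363, lies 369907 bases away. There miR-106a-5p had 15 reads in UM-SCC6-M and 10 in UM-SCC6, with an interval of its log2 ratio from -0.82 to 1.75, and miR-363-3p was listed at 0 in both. miR-92a-3p (0.80) and miR-19b-3p (0.55) can also come from chromosome 13, so their ratios do not belong to the X chromosome alone.

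**Figure D4:**
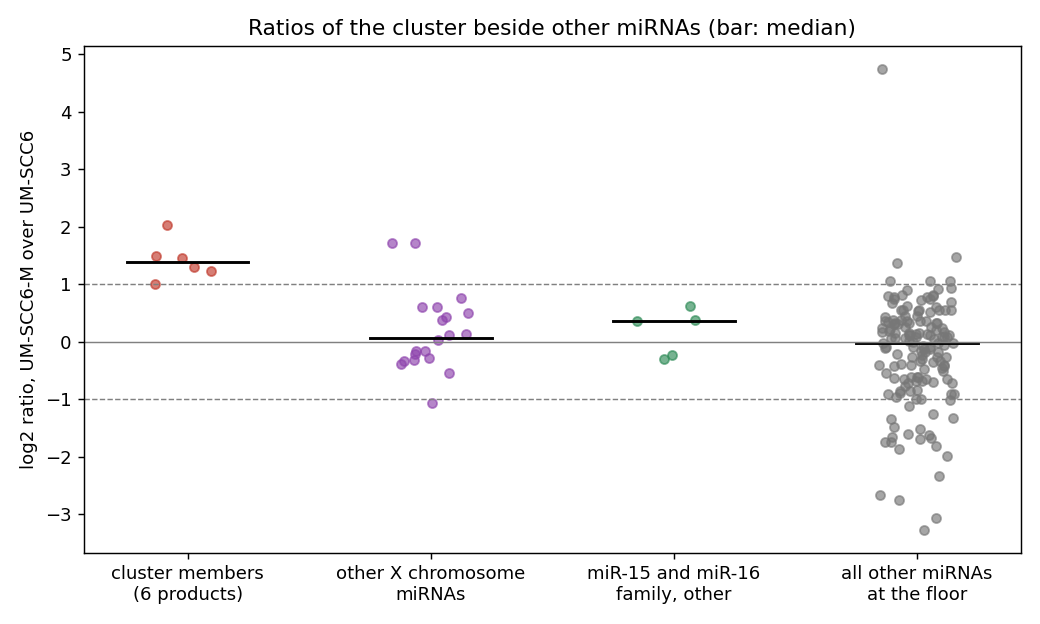
Log2 ratios of UM-SCC6-M over UM-SCC6, 1 point per miRNA, for the 6 cluster products, 20 other X chromosome miRNAs, 5 other members of the miR-15 and miR-16 family with reads in both libraries, and the remaining miRNAs at 50 or more normalized reads; black bars are medians and dashed lines mark 2-fold. The cluster's median is 1.38, that of the other X chromosome miRNAs 0.08 and that of the family members outside the cluster 0.36.

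Likeness to the cluster was measured as the distance in log2 ratio, over these 2 libraries, from 1.47, the median of the 5 called members. The nearest of 174 other miRNAs was miR-4521 on chromosome 17 (1.47), followed by miR-365a-3p on chromosome 16 (1.38). The next were miR-374c-3p and miR-374b-5p (both 1.72), which are 1 measurement, and miR-28-3p on chromosome 3 (1.05). With 1 library per culture such likeness rests on a single ratio.

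Markers of other cell types were set beside the cluster. The 7 fibroblast or stromal miRNAs, 3 of them at or above 10 normalized reads, summed to 113 in UM-SCC6-M and 64.6 in UM-SCC6. miR-199a-3p and miR-199b-5p were each 2.07-fold higher, and miR-143-3p stood at a log2 ratio of -1.34. miR-199a-5p had 1 read in UM-SCC6-M and 13 in UM-SCC6, a log2 ratio of -3.32 (-9.26 to -1.12). In neither library were miR-127-3p, miR-145-5p or miR-214-3p listed above 0. Whether such cells were present in these cultures of a carcinoma line, and any part of them in the cluster's ratio, was not tested. The 2 endothelial names summed to 550 normalized reads in UM-SCC6-M and 986 in UM-SCC6, most of it from miR-126-3p (520 and 968 in the same order). miR-126-5p went the other way and was 1.71-fold higher (1.39 to 2.13). The muscle list, of which 4 of 5 names had an entry, summed to 115 in UM-SCC6-M and 346 in UM-SCC6. Nearly all of it came from miR-1-3p (109 and 333 in the same order). miR-133a-3p and miR-499a-5p stayed below 10 normalized reads and miR-133b was listed at 0 in both libraries. Of the 5 blood names, 4 had an entry and 3 of these were listed at 0 in both libraries, and the list summed to 17.9 in UM-SCC6-M and 24.6 in UM-SCC6. The hypoxia-induced miR-210-3p had 56.8 normalized reads in UM-SCC6-M and 52.1 in UM-SCC6, a log2 ratio of 0.13 (-0.07 to 0.32). miR-210-5p, the minor arm, had 38 reads in UM-SCC6-M and 14 in UM-SCC6, a log2 ratio of 1.25 (0.37 to 2.28). It stayed below 10 normalized reads in both libraries.

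The authors' deposited table gave its own comparison of the 2 libraries. In the authors' deposited table the q-value was 5.37e-33 for miR-424-3p, 3.64e-18 for miR-450b-5p and 0.015952 for miR-424-5p. These values compare 2 libraries and not the cultures' conditions, and they were not used to call any difference here.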

How the data were processed

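Per the labels' protocols, the input was 3 µg of total RNA, adapters were ligated to both ends, and products of 140 to 160 bp were cut from a gel. The submitters' processing notes name Bowtie without a version, and the sources used here do not give the build, the database release or the counter. The deposited table has 1213 entries (1178 named miRNAs, 35 candidates) with a signal column for each library, called normalized reads, which the authors scaled by a method that was not named.

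All values above 0 (100%, within 0.01 reads) were whole multiples of 1 step, 0.119 for UM-SCC6-M and 0.133 for UM-SCC6, and dividing by the step gave reads. Values under 1 appear as 0, at most 8 and 7 reads. For 96 entries at 0 in 1 library, the deposited log2 fold change (UM-SCC6-M over UM-SCC6, by the authors) gave the missing reads, never fewer than 1. For 3 more, miR-450a-2-3p among them, the fold change cell is NA and 0 reads were taken. The deposited p-value and q-value columns were only copied.

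Log2 ratios used the authors' scaling with 0.5 reads added to each library. Ratio and share intervals are Clopper-Pearson, level intervals exact Poisson, and product differences use the conditional odds ratio. With 1 library per group no test was made. A call needs 50 normalized reads in the higher library and a 2-fold difference, over all entries. The steps were tested on simulated data. The members and lists were chosen with earlier results of these data known. Named miRNAs are the members, other arms of their hairpins, up to 6 members a list, seed relatives and the 5 nearest ratios. Other X chromosome miRNAs, single markers below 10 normalized reads and those at 0 were named after their values were seen. Positions are from RefSeq (GRCh38.p14) and GENCODE release 29. Python 3.11.15, numpy 2.4.6, pandas 2.3.3, scipy 1.17.1 and matplotlib 3.10.9 were used; alternatives were other scalings, floors, thresholds and 5 added reads.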

Additional observations from a re-analysis of the deposited data

How the results depend on the processing

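No paired analysis was possible because each culture gave 1 library. Of 30 recomputed log2 ratios of the 6 listed products (4 other scalings and 5 added reads), none changed direction, the range was 0.98 to 2.27, and 4 left their counting interval. Scaling to the total of all reads raised each log2 ratio by 0.24. It gave 1.79 in place of 1.55 for the summed level, 1.62 in place of 1.38 for the median of the products, and 0.32 in place of 0.08 for the median of the other X chromosome miRNAs. That last median has no stable sign: a floor of 10 normalized reads gave -0.12, and using only names in the mature sequence table, an alternative chosen after seeing the data, gave -0.060 over 16 miRNAs. Limiting the products to those at 50 or more normalized reads moved their median to 1.47. At 200 or more it was 2.03, the value of miR-424-3p alone, because no other product is left. The number of members called was 5 and became 1 with a floor of 200 and 1 with a 4-fold threshold, and it was 5 to 7 under the other 9 alternatives tried. miR-424-5p had a log2 ratio of 0.99 with the trimmed mean of M-values and 0.98 with 5 added reads, just under 2-fold. Depth limits the minor arms: those of miR-503, miR-542 and miR-450a had too few reads to compare.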
